A study of Mus musculus with 6 samples.

Results

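Transcripts of 26 genes of cholesterol synthesis and of its control by SREBP2 were compared between liver non-parenchymal cells of vehicle-treated and ginkgetin-treated mice. The genes were chosen by name, with earlier results of these data known. All 26 were present in the count tables of all 6 libraries, out of 19349 gene symbols. They are 5 enzymes from acetyl-CoA to isopentenyl pyrophosphate (Acat2, Hmgcs1, Mvk, Pmvk and Mvd), 4 enzymes of the isoprenoid steps to squalene (Idi1, Fdps, Ggps1 and Fdft1) and 2 enzymes from squalene to lanosterol (Sqle and Lss). A further 9 act from lanosterol to cholesterol (Cyp51, Tm7sf2, Lbr, Msmo1, Nsdhl, Hsd17b7, Ebp, Sc5d and Dhcr7). The remaining genes are Srebf2 and its control genes Scap, Insig1 and Insig2, and the sterol transfer and storage genes Stard4 and Soat1. All mice were male C57BL/6J animals, 8 weeks old at the start, that received a high-fat diet for 24 weeks. Dosing into the stomach took up the final 8 weeks of the diet. One group received 10 mg/kg per day of ginkgetin, a biflavone of Ginkgo biloba leaves, and the other DMSO as the vehicle. There were 3 libraries per group, made on the 10x Genomics Chromium system by the study's methods, while the extraction text of the labels names kits for total RNA and mRNA libraries. The tables themselves hold cell barcodes. No sample of mice on a chow diet is used here. The labels do not say whether a library came from 1 mouse or from several, so the p-values measure the spread between these libraries.

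Cells build cholesterol from acetyl-CoA through mevalonate, isoprenoids, squalene and lanosterol. SREBP2, encoded by Srebf2, is the main transcription factor of these enzymes. It is held in the endoplasmic reticulum as a complex with SCAP, the sterol sensor encoded by Scap, and the INSIG proteins retain this complex when sterols are abundant. When sterols run low the complex moves to the Golgi, where SREBP2 is cleaved and its active part enters the nucleus. Insig1 is itself a target of SREBP2. In the liver most cholesterol synthesis is studied in hepatocytes, while cholangiocytes line the bile ducts and are in contact with bile.

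The tables held 33168 barcodes and 13128697 to 61796882 unique molecular identifiers (UMIs) per library. A cell filter left 27544 cells, 3336 to 6918 per library, at a median depth of 2483 to 8412 UMIs per cell. Clusters were named from marker genes in 11 classes, and 6 of 38 clusters, with 1478 cells, stayed unnamed. Replicate 3 of both groups differed from replicates 1 and 2 in its barcodes and in part of its gene symbols. Of the symbols with at least 50 UMIs in the other libraries, 432 were at 0 in both replicate 3 libraries and 655 were at 0 in all libraries of replicates 1 and 2, with none of the 26 genes among them. Pairs of libraries shared 0 to 85 cell barcodes. Levels are given as CPM, the UMIs of a gene scaled to a common total of UMIs over all cells of a class in a library. A difference in CPM of such a sum does not tell more positive cells from more RNA per cell. Log2 fold changes are ginkgetin over vehicle, from edgeR with TMM scaling, with the standard error as SE. Calls required a fold over 2 and a p under 0.05 after Benjamini-Hochberg adjustment over all genes tested in the class.

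The promoters of 4 genes are shown, 250 bases up to the transcription start on the GRCm38.p6 assembly, because these genes share control by SREBP2. Capitals mark TCACNCCA, a loose spelling of the sterol regulatory element, and CCAAT, the site of the SREBP2 partner NF-Y, on either strand. Hmgcs1, Msmo1 and Srebf2 are the genes with a TCACNCCA match. Idi1, Lss, Cyp51 and Dhcr7, called later in cholangiocyte-like cells, had no such match and are not shown. The 4 promoters are therefore not typical of the genes called. The windows lie at chr13:119690101-119690350 on the plus strand for Hmgcs1, chr8:64733579-64733828 on the minus strand for Msmo1, chr15:82147019-82147268 on the plus strand for Srebf2 and chr5:28071162-28071411 on the plus strand for Insig1. All sequences are those of RefSeq.
Hmgcs1: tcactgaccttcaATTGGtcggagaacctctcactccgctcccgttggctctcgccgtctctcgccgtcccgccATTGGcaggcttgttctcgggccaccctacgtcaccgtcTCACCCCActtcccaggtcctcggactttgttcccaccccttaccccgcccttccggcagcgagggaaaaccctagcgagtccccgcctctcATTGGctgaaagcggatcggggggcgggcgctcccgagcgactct
Msmo1: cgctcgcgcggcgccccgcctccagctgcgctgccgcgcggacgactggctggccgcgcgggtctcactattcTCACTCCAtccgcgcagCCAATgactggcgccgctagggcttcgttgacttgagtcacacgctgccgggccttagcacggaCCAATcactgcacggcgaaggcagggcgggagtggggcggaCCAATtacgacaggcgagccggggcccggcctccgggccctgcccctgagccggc
Srebf2: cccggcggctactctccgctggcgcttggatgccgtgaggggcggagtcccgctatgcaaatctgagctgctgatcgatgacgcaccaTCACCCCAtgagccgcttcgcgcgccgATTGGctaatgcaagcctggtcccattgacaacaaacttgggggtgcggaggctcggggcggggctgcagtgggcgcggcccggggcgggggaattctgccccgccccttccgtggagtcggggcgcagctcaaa
Insig1: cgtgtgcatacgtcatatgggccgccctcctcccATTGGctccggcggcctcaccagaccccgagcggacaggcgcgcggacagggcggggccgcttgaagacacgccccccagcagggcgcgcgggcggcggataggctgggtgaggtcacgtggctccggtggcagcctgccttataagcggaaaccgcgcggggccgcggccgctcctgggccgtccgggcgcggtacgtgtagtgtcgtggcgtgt
Among the 26 genes, 22 had an entry in the promoter table. TCACNCCA was found in 3 of them (Hmgcs1, Msmo1 and Srebf2), which is 13.6% against 4.2% of 27025 gene symbols. CCAAT was found in 20 of the 22, 90.9% against 37.5%. A stricter spelling of the element, with 10 fixed bases, was found in 0 of the 22, against 0.0814% of the symbols. TCACGTGA, the E-box spelling of the element, was found in 0 of the 22, against 0.907% of the symbols. These are matches of letters in 1 window, and several spellings of the element were counted before TCACNCCA was taken.

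The summed level of the 26 genes differed several-fold between classes, and it was highest in the epithelial cells that were carried in the preparation. In vehicle libraries the summed level was 1401 CPM ± 288 in hepatocyte-like cells, 856 CPM ± 90.5 in cholangiocyte-like cells and 636 CPM ± 48.9 in dendritic-like cells (SD, n = 3 each). The libraries of these 3 classes did not overlap with each other. In the other 8 classes the vehicle means ran from 378 to 549 CPM, and most neighbours in this order overlapped. Cholangiocyte-like cells, at 3283 CPM ± 399 (SD, n = 3), were highest in the ginkgetin libraries, overlapping with hepatocyte-like cells, at 2764 and 3254 CPM in 2 libraries. The other classes had ginkgetin means of 471 to 1038 CPM. The classes are clusters of the same cells, so this order is a description.

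**Figure D1:**
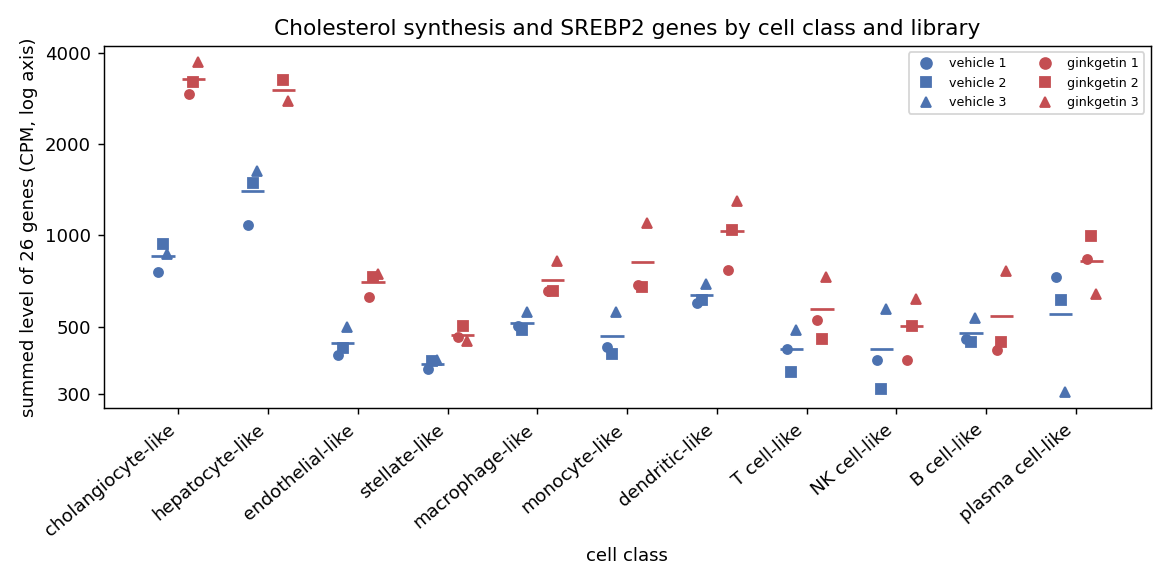
Summed level of the 26 genes in each cell class, in CPM on a log axis. Each symbol is 1 library (blue for vehicle, red for ginkgetin, shape for the replicate number) and lines are group means. In cholangiocyte-like cells the ginkgetin libraries sit at 2931 to 3716 CPM, above the vehicle libraries at 761 to 941 CPM, while in B cell-like cells the groups overlap.

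Single genes had orders of their own, Insig2 with the same classes on top and Soat1 and Stard4 with others. Insig2, which retains SCAP in the endoplasmic reticulum, was at 422 to 550 CPM in vehicle hepatocyte-like cells and at 67.1 to 83.8 CPM in cholangiocyte-like cells. Soat1, which esterifies cholesterol for storage, was at 131 to 168 CPM in vehicle macrophage-like cells and at 88.8 to 114 CPM in monocyte-like cells. In cholangiocyte-like cells Soat1 was at 3.32 to 6.1 CPM. Stard4, a carrier of sterols between membranes, was at 60 to 75.6 CPM in vehicle endothelial-like cells, at 32 to 61.6 CPM in cholangiocyte-like cells and at 8.51 to 10.1 CPM in macrophage-like cells.

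The largest ratio of summed levels between the groups, 3.84, was in cholangiocyte-like cells, the epithelium of the bile ducts. These cells formed 1 cluster in which all 7 markers were detected, Epcam, Krt19 and Sox9 among them. The cluster held 125, 107 and 58 cells in vehicle replicates 1, 2 and 3 and 76, 136 and 56 cells in ginkgetin replicates 1, 2 and 3. Median depths were 8699, 6715 and 11969 UMIs in the vehicle libraries and 5520, 5872 and 12706.5 UMIs in the ginkgetin libraries. By edgeR's quasi-likelihood test 10 of the 25 cholesterol genes tested were called higher with ginkgetin and 0 lower. Over all 7947 genes tested, 14 were called, a background of 0.176% (0.138% for calls in the higher direction). The 10 genes were Idi1, Lss, Hmgcs1, Fdft1, Cyp51, Insig1, Sqle, Msmo1, Dhcr7 and Fdps. The 1 other gene called higher was Scd2, a fatty acid desaturase (log2 fold change 1.74, SE 0.21, adjusted p 0.0137 in edgeR), and the 3 called lower were Mmp7, Gc and Il1rn. Of the 25 genes, 24 had an estimate above 0, against 50.4% of all genes, with a median log2 fold change of 1.81 against 0.01 over all genes. All 3 ginkgetin libraries lay above all 3 vehicle libraries for 21 of the 25 genes, against 8.29% of all genes. Soat1 had too few counts to be tested.

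Among the enzymes from acetyl-CoA to isopentenyl pyrophosphate, Hmgcs1 passed the test. Hmgcs1, which makes HMG-CoA, was at 38.2, 46.8 and 58 CPM in the vehicle libraries and at 332, 311 and 632 CPM in the ginkgetin libraries. The groups were far apart and the replicate 3 library was highest in both (log2 fold change 3.16, SE 0.32, adjusted p 0.00825 in edgeR). Mvk, Pmvk and Mvd, which carry mevalonate to isopentenyl pyrophosphate, had log2 fold changes of 1.24, 1.12 and 2.16 (edgeR adjusted p from 0.0781 to 0.204) and did not overlap between groups. Acat2, the first thiolase of the path, was at 29, 33.3 and 21.4 CPM against 51.5, 48.2 and 54.4 CPM (log2 fold change 0.88, edgeR adjusted p 0.227). The mean sum of the 5 genes was 159 CPM in vehicle and 684 CPM in ginkgetin libraries, a ratio of 4.31.

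Of the isoprenoid enzymes, Idi1, Fdps and Fdft1 rose, and Ggps1, the branch enzyme to geranylgeranyl pyrophosphate, did not pass the test. Idi1, the isomerase of isopentenyl pyrophosphate, was at 29, 40.7 and 38.1 CPM in vehicle and at 223, 209 and 310 CPM in ginkgetin libraries (log2 fold change 2.79, SE 0.25, adjusted p 0.00413 in edgeR). Fdps, which makes farnesyl pyrophosphate, was at 38.2, 86.3 and 99.1 CPM against 381, 367 and 431 CPM. Vehicle replicate 1 was the low library among the vehicle group here (log2 fold change 2.42, SE 0.35, adjusted p 0.0372 in edgeR). Fdft1, the squalene synthase, was at 55.6, 41.9 and 45.8 CPM against 242, 214 and 201 CPM (log2 fold change 2.21, SE 0.23, adjusted p 0.00825 in edgeR). Ggps1 was at 14.9, 11.1 and 15.3 CPM against 5.72, 12.6 and 41.2 CPM, so that the ginkgetin libraries lay on both sides of the vehicle libraries (log2 fold change 0.52, edgeR adjusted p 0.722). The mean sums of the 4 genes were 172 and 879 CPM, a ratio of 5.11.

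Both enzymes from squalene to lanosterol rose. Sqle, the squalene epoxidase, was at 53.9, 62.9 and 47.3 CPM in the vehicle libraries and at 166, 218 and 246 CPM in the ginkgetin libraries (log2 fold change 1.95, SE 0.23, adjusted p 0.0129 in edgeR). Lss, the lanosterol synthase, was at 5.81, 7.4 and 7.63 CPM against 55.3, 57.6 and 82.4 CPM (log2 fold change 3.24, SE 0.29, adjusted p 0.00413 in edgeR). These Lss levels rested on 7, 6 and 5 UMIs in the vehicle libraries and 29, 55 and 56 UMIs in the ginkgetin libraries, so the vehicle level is the less precise one. The mean sums of both genes were 61.6 and 275 CPM, a ratio of 4.46.

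From lanosterol to cholesterol, Cyp51, Msmo1 and Dhcr7 were called. Cyp51, the lanosterol demethylase, was at 22.4, 29.6 and 33.6 CPM against 107, 135 and 169 CPM (log2 fold change 2.29, SE 0.25, adjusted p 0.00962 in edgeR). Msmo1, which removes methyl groups from the sterol ring, was at 35.7, 80.1 and 61 CPM against 280, 303 and 374 CPM (log2 fold change 2.45, SE 0.31, adjusted p 0.0174 in edgeR). Dhcr7, the last reductase on the path, was at 6.64, 12.3 and 9.15 CPM against 43.9, 45 and 69.1 CPM (log2 fold change 2.51, SE 0.33, adjusted p 0.0187 in edgeR). In none of the 3 did the groups overlap. Nsdhl, Hsd17b7 and Sc5d also lay apart, with log2 fold changes of 1.71, 2.39 and 1.45, and missed the threshold (edgeR adjusted p from 0.0781 to 0.106). Tm7sf2 and Lbr, the sterol reductases, had log2 fold changes of 1.36 and 0.91 (edgeR adjusted p 0.364 and 0.216). Ebp, a sterol isomerase, was at 87.9, 83.8 and 67.1 CPM against 72.5, 102 and 76.5 CPM, with overlapping groups (log2 fold change 0.09, SE 0.24). The mean sums of the 9 genes were 271 and 859 CPM, a ratio of 3.17.

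Of the control genes, Insig1 rose and Insig2 had an estimate in the other direction. Insig1 was at 14.1, 27.1 and 18.3 CPM in the vehicle libraries and at 172, 380 and 191 CPM in the ginkgetin libraries. Ginkgetin replicate 2 was highest, and the fold change was the largest of the 25 (log2 fold change 3.68, SE 0.42, adjusted p 0.0107 in edgeR). Insig2 was at 83.8, 76.4 and 67.1 CPM against 62.9, 67 and 48.5 CPM, just apart, and did not pass (log2 fold change -0.33, SE 0.24, adjusted p 0.582 in edgeR). Srebf2 itself was at 20.7, 33.3 and 44.2 CPM against 107, 101 and 128 CPM, with a log2 fold change of 1.81 (SE 0.29) and an edgeR adjusted p of 0.0645. Scap had a log2 fold change of 0.58 (edgeR adjusted p 0.471). Stard4 was at 38.2, 61.6 and 32 CPM against 122, 148 and 143 CPM (log2 fold change 1.66, SE 0.28, adjusted p 0.078 in edgeR). Soat1 was at 3.32, 3.7 and 6.1 CPM against 7.63, 3.14 and 5.88 CPM.

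**Figure D2:**
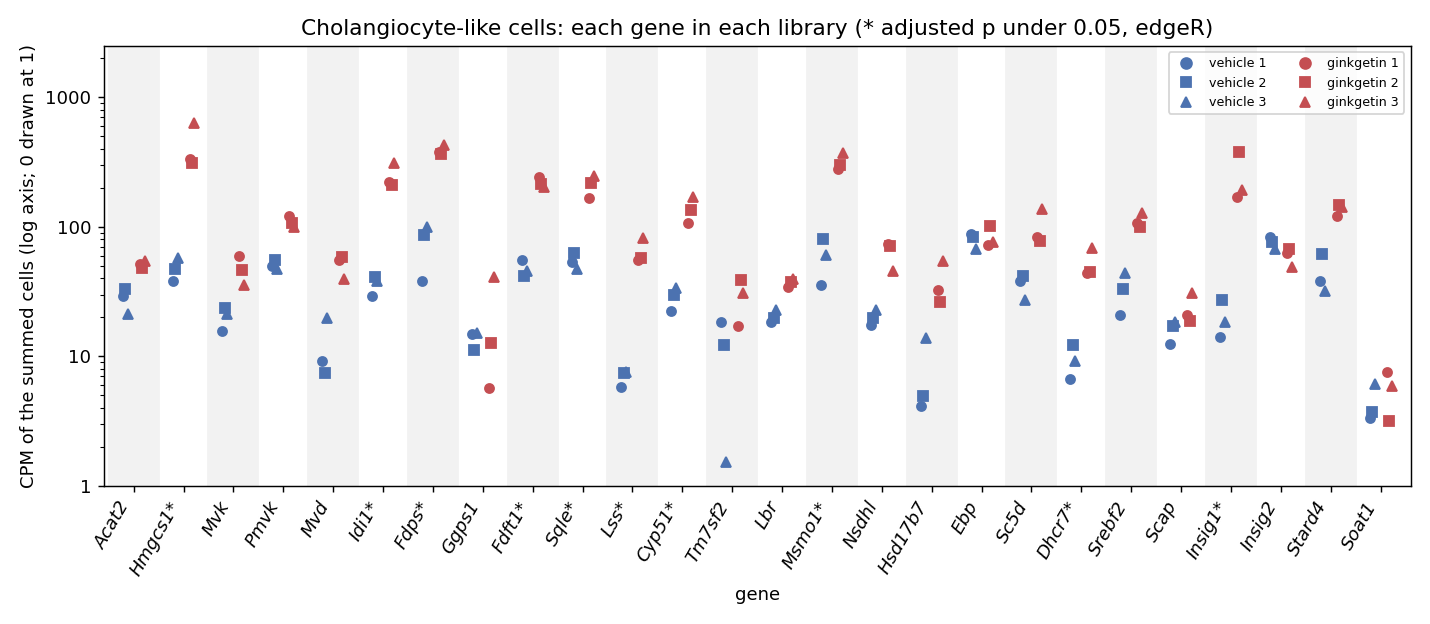
Level of each of the 26 genes in cholangiocyte-like cells, in CPM on a log axis, with 1 symbol per library (blue for vehicle, red for ginkgetin, shape for the replicate number). Stars mark the 10 genes at an edgeR adjusted p under 0.05. Most red symbols lie above the blue ones, whereas Ebp, Ggps1, Tm7sf2 and Soat1 overlap between the groups and Insig2 lies slightly lower in the ginkgetin libraries.

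The 10 calls rested on all libraries of replicates 1 and 2. No gene was called by edgeR when any 1 of these 4 libraries was left out, although 20 or 21 of the 25 genes kept an unadjusted p under 0.05 in each of these fits, against 6.61% to 10.5% of all genes. In these 4 fits edgeR called 0 genes in the whole table, and the differences stayed about as large. With any 1 of the 6 libraries left out the median log2 fold change was 1.79 to 1.93, that of Idi1 2.65 to 2.89 and that of Lss 3.09 to 3.29. There were 5 calls without vehicle replicate 3, against 0.116% of all genes, and 8 without ginkgetin replicate 3, against 0.152%. With the replicate number as a block 18 of the 25 genes were called, all higher, against 2.45% of all genes, and these included Srebf2 (adjusted p 0.000124) and Stard4 (adjusted p 0.000144). Mvk, Pmvk, Mvd, Nsdhl, Hsd17b7 and Sc5d, which missed the threshold without the block, were called with it (adjusted p in edgeR from 0.000774 to 0.0329). A term for the barcode set, replicate 3 against replicates 1 and 2, assumes no pairing by number. It gave 18 calls too, against 2.52% of all genes. DESeq2 called 16, against 1.08% of all genes, and limma-voom 9, against 0.151%.

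The share of cells with a UMI was compared at equal depth. With every cell thinned to 1000 UMIs, which left out no cholangiocyte-like cell, Hmgcs1 was found in 4.26% ± 2.52 of vehicle cells and in 32.3% ± 8.43 of ginkgetin cells (SD, n = 3 each). Msmo1 was found in 5.82% against 28.3%, Sqle in 3.51% against 22.5% and Insig1 in 1.73% against 16.7%. Of 14 genes compared in this way, 8 did not overlap between the groups, all higher with ginkgetin, against 5.85% of all genes for that direction. Each of the 8 had an exact permutation p of 0.1 (two-sided), the smallest that 3 libraries against 3 can give. In macrophage-like cells the thinned share for Hmgcs1 was 2.35% and 3.8%, and in endothelial-like cells it was 2.31% and 3.58%. Without thinning the Hmgcs1 shares in cholangiocyte-like cells were 31.9% and 83.4%.

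In gene lists near this pathway 1 gene passed, where 0.176% of all genes did, so lists of this size would rarely hold a passing gene at that share. Of 11 genes of fatty acid synthesis that were tested, a list under control of SREBP1, Scd2 passed the test, and the summed level was 401 to 441 CPM against 757 to 1063 CPM, without overlap. In the lists of SREBP processing (9 genes tested), the isoprenoid branch (9) and sterol transport, efflux and LXR (12), 0 genes passed and the summed levels overlapped. The same held for cell cycle genes, stress genes and hepatocyte transcripts, the last at 8847 to 17880 CPM in vehicle and 9790 to 15982 CPM in ginkgetin libraries. The summed markers of cholangiocytes were lower with ginkgetin, at 30916 to 43166 CPM against 19938 to 23177 CPM, with 0 of 7 passing the test and 3 at an unadjusted p under 0.05. The summed markers of endothelial cells were higher, at 69 to 128 CPM against 188 to 942 CPM, with 0 of 4 genes passing. The part of these markers in the result was not tested. In endothelial-like cells the 26 genes summed to 627 to 747 CPM in the ginkgetin libraries.

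The group difference was also compared between classes, in 1 model with the library as a block. Against macrophage-like cells, 17 of 26 genes had a larger difference in cholangiocyte-like cells at an edgeR adjusted p under 0.05 (background 8.11%). For Insig1, the gene with the lowest p, the log2 fold change was larger by 3.53 (SE 0.32, adjusted p 6.1e-07 in edgeR). Against endothelial-like cells the 5 genes were Hmgcs1, Insig1, Msmo1, Fdps and Mvd (background 0.895%), with differences of 1.73 to 2.72 on the log2 scale. Against monocyte-like cells they were Insig1, Mvd and Hmgcs1, 3 genes (background 0.313%), and against dendritic-like cells Fdps, Insig1, Idi1 and Hmgcs1, 4 genes (background 0.173%). Against T cell-like cells there were 6 genes (background 0.209%), Fdps, Insig1, Dhcr7, Msmo1, Sc5d and Idi1. All of these differences were larger in cholangiocyte-like cells, and 0 genes passed in the other direction. Insig1 was the 1 gene that passed in all 5 comparisons with all libraries. Without vehicle replicate 1 the comparison with T cell-like cells gave 0 genes, against 0.0176% of all genes, and that with endothelial-like cells gave 1, against 0.333%. Without ginkgetin replicate 1 or 3 the endothelial-like comparison gave 2 and 1 genes, against 0.298% and 0.383%. Leaving out vehicle replicate 2, vehicle replicate 3 or ginkgetin replicate 1 gave 2, 3 and 3 genes for T cell-like cells, against 0.0495%, 0.062% and 0.14%. With cells assigned one by one the monocyte-like comparison gave 0 genes, against 0%.

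**Figure D3:**
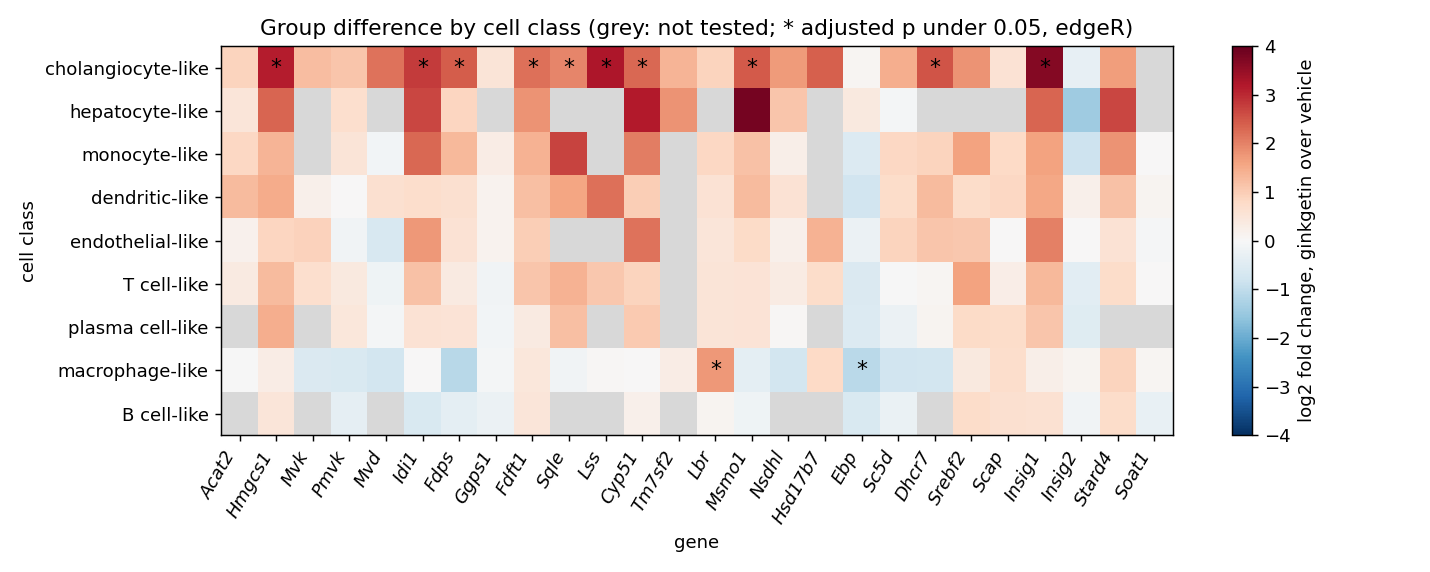
Log2 fold change (ginkgetin over vehicle) of each gene in 9 cell classes, as colour. Red is higher and blue is lower with ginkgetin, grey fields were not tested and stars mark an edgeR adjusted p under 0.05. The cholangiocyte-like line carries 10 stars, the macrophage-like line 2 (Lbr and Ebp) and the other lines 0, although the hepatocyte-like, monocyte-like and dendritic-like lines are mostly red.

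In endothelial-like cells, the lining of the sinusoids and vessels, most of the genes were higher in the ginkgetin libraries, by smaller amounts, and none was called. By edgeR 0 of 23 genes tested passed, against 0.691% of 10420 genes called and 0.72% passing at any fold, and 13 had an unadjusted p under 0.05, all higher with ginkgetin, against 6.77% of all genes in that direction. Estimates were above 0 for 19 of 23 genes, against 49.2% of all genes, and the median log2 fold change was 0.59. In this class the TMM scaling lies 0.14 (log2) below the ratio of CPM values for the typical gene, and in macrophage-like cells it lies 0.43 below. The fold changes are relative to that shift, so CPM values in macrophage-like cells look higher with ginkgetin than the fold changes do. The summed level was 403, 425 and 500 CPM in the vehicle libraries and 627, 728 and 747 CPM in the ginkgetin libraries.

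Among the enzymes in endothelial-like cells, Idi1 was closest to the threshold. It was at 4.02, 4.57 and 6.57 CPM in vehicle and at 18.1, 20.6 and 15.7 CPM in ginkgetin libraries (log2 fold change 1.73, SE 0.27, adjusted p 0.0593 in edgeR). Cyp51 was at 1.26, 1.31 and 1.49 CPM against 5.25, 8.99 and 5.85 CPM (log2 fold change 2.19, SE 0.40, adjusted p 0.0829 in edgeR). Both genes were at low levels and higher without overlap. In this class 11 of the 23 genes tested were higher without overlap, against 11.6% of all genes. Hmgcs1 was at 18.8, 17 and 26.9 CPM against 33.5, 51.4 and 39.1 CPM (log2 fold change 0.86, edgeR adjusted p 0.171). Fdft1, Msmo1 and Lbr had log2 fold changes of 0.98, 0.77 and 0.47, with ginkgetin libraries above vehicle libraries in each. Ggps1 was high in the replicate 3 library of both groups, at 51.4 and 63.4 CPM, against 5.87 to 12.6 CPM in the other 4 libraries. Sqle was at 0.251, 0.653 and 0.299 CPM against 1.64, 4.22 and 1.95 CPM and was not tested, as were Lss and Tm7sf2.

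Of the control and transfer genes in endothelial-like cells, Insig1 was at 10.5, 17 and 14.9 CPM against 50.9, 88.8 and 43.3 CPM (log2 fold change 2.02, SE 0.39, adjusted p 0.0929 in edgeR). Srebf2 was at 11, 16.3 and 23.6 CPM against 32.5, 38.2 and 45.2 CPM (log2 fold change 1.07, SE 0.22, adjusted p 0.109 in edgeR). Stard4 was at 68.8, 60 and 75.6 CPM against 109, 108 and 123 CPM (log2 fold change 0.59, edgeR adjusted p 0.155). Each of the 3 lay higher without overlap, as did 11.6% of all genes. Insig2 (log2 fold change 0.01), Scap (0.02) and Soat1 (-0.04) had estimates near 0 and overlapped. With the replicate number as a block Idi1, Cyp51, Insig1 and Srebf2 were called, 4 genes against 4.31% of all genes, and 9 passed at any fold. DESeq2 called the same 4 genes, against 3.14% of all genes. In shares of cells thinned to 1000 UMIs, 10 of 14 genes did not overlap, all higher with ginkgetin, against 17.1% of all genes (11.6% in the higher direction).

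The endothelial-like cells were not of the same clusters in both groups. Of 1521 cells in a cluster led by Fabp4 and Lyve1, 1000 and 446 came from vehicle replicates 1 and 2. The clusters led by Ehd3, by Wnt2 and by Selenop were mostly of ginkgetin libraries, and 374 of the 407 cells of vehicle replicate 3 lay in a cluster led by Cavin2. The sub-clusters named sinusoidal were each mostly of 1 group, and several of 1 library. The one that held 1060 and 486 cells of vehicle replicates 1 and 2 had 5 sinusoidal markers detected, but its leading genes were heat-shock and macrophage genes (Hspa1b, Hspa1a, C1qb and Lyz2 among them) with no sinusoidal marker, so the pooled values are not read as those of 1 cell type. In these sub-clusters, with only 11 cells of vehicle replicate 3, 0 of 22 genes were called by edgeR (background 0.211%) or DESeq2 (background 0.873%), and 10 had an unadjusted p under 0.05, all higher, against 6.89% of all genes in that direction, and the median log2 fold change was 0.87. With the replicate block Insig1, Idi1 and Srebf2 were called, 3 genes against 3.48% of all genes. There were 6 calls with the barcode set as a term, against 3.40%, 5 of 23 in replicates 1 and 2 only, against 3.53%, and 3 of 23 without ginkgetin replicate 3, against 2.12%. In vascular sub-clusters 0 of 14 genes were called (background 0.0125%) and the median was 0.30. Summed macrophage markers in endothelial-like cells were at 176 to 313 CPM in vehicle and 56.1 to 147 CPM in ginkgetin libraries, with 0 of 8 passing the test. Summed endothelial markers were at 9843 to 12881 CPM against 15380 to 19852 CPM, with 0 of 10 passing, and the part of either in the result was not tested. Of the list of sterol transport, efflux and LXR genes, 2 of 18 passed, both lower, against 0.72% of all genes passing. These were Abca1, the sterol exporter (log2 fold change -2.74, SE 0.25), and Ch25h, the cholesterol hydroxylase (-3.23, SE 0.30), both at an edgeR adjusted p of 0.0157. Abca1 was itself a leading gene of the sub-cluster with 1060 and 486 cells of vehicle replicates 1 and 2, beside the heat-shock and macrophage genes. The part of that sub-cluster in its lower value was not tested.

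In macrophage-like cells 2 genes passed the test, in opposite directions. The summed level of the 26 genes was 503, 489 and 557 CPM in vehicle and 657, 657 and 821 CPM in ginkgetin libraries, higher without overlap. On the CPM scale 7 of the 26 genes were higher and 1 lower without overlap, against 40.8% of all genes in either direction and 32.9% in the higher one, and the median log2 ratio of CPM was 0.54 over the members and 0.46 over all genes. All 26 genes were tested and 2 were called by edgeR, near the background of 10.4% (5.46% for calls in the higher direction). With TMM scaling the median log2 fold change was 0.01, with 14 estimates above 0 and 12 below. Lbr, a sterol reductase that is also a receptor for lamin B in the nuclear envelope, was at 16, 18.9 and 16.9 CPM in vehicle and at 74.7, 58.4 and 103 CPM in ginkgetin libraries (log2 fold change 1.72, SE 0.22, adjusted p 0.0136 in edgeR). Ebp was at 75.4, 68.4 and 70.6 CPM against 46.7, 51.3 and 42.2 CPM (log2 fold change -1.09, SE 0.21, adjusted p 0.0226 in edgeR). In both genes the groups did not overlap, as in 40.8% of all genes. Both calls were lost when replicate 1 or 2 of the vehicle group or replicate 2 of the ginkgetin group was left out, fits in which edgeR called 0 genes at all. In fits without replicate 1 or 3 of the ginkgetin group 1 call was left, against 4.89% and 1.60% of all genes. The log2 fold changes with 1 library left out were 1.54 to 1.86 for Lbr and -1.20 to -0.94 for Ebp. With the replicate block Fdps was called too, as lower (adjusted p 0.0105), 3 genes against 15.6% of all genes.

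The other genes of macrophage-like cells are given for comparison with the bile duct cells. Hmgcs1 was at 16, 19.5 and 24.4 CPM against 34.3, 41.3 and 26.1 CPM (log2 fold change 0.29, SE 0.29). Idi1 was at 11, 8.25 and 8.4 CPM against 18.7, 11.4 and 11.4 CPM (log2 fold change 0.01, SE 0.36). In both genes all ginkgetin libraries lay above all vehicle libraries in CPM, as did 32.9% of all genes in this class. Fdft1 was at 6.28, 4.88 and 4.72 CPM against 12.5, 14.2 and 5.68 CPM, Sqle at 3.72, 3.37 and 2.52 CPM against 0, 8.54 and 2.84 CPM, and Cyp51 at 11.9, 10.1 and 14.5 CPM against 9.34, 17.1 and 22.3 CPM. In ginkgetin replicate 1 the 0 UMIs of Sqle among 321116 UMIs leave the level open at this depth. Msmo1 was at 24.2, 21.4 and 25.5 CPM against 24.9, 24.2 and 26.5 CPM, and Ggps1 at 8.01, 7.91 and 15.5 CPM against 6.23, 7.12 and 24.2 CPM. The groups overlapped for Fdft1, Sqle, Cyp51, Msmo1 and Ggps1. In shares of cells thinned to 1000 UMIs, 6 of the 14 listed genes did not overlap, all higher with ginkgetin (Hmgcs1, Idi1, Lbr, Insig2, Stard4 and Soat1), against 31.8% of all genes (24.6% in the higher direction). Ebp, outside those 14, did not overlap either and was lower, at 6.64% of vehicle and 3.15% of ginkgetin cells. At 500 UMIs its groups overlapped, at 3.30% and 2.22%. Without thinning 7 of the 14 did not overlap, all lower with ginkgetin, so the direction of these shares turned with the depth of the cells.

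Of the control and storage genes in macrophage-like cells, Insig1 was at 31.6, 39.2 and 26.9 CPM against 59.2, 65.5 and 37.4 CPM (log2 fold change 0.25, SE 0.33). Insig2 was at 22.5, 20.4 and 21.1 CPM against 18.7, 37 and 37.9 CPM, and Srebf2 at 14.7, 13.6 and 26.1 CPM against 18.7, 34.2 and 42.2 CPM. Scap was at 11.1, 7.91 and 15 CPM against 15.6, 15.7 and 41.7 CPM (log2 fold change 0.69, edgeR adjusted p 0.258). None of these 4 passed. Stard4 was at 10.1, 9.6 and 8.51 CPM against 31.1, 25.6 and 18 CPM, apart between the groups (log2 fold change 0.88, SE 0.34, adjusted p 0.125 in edgeR). Soat1 was at 135, 131 and 168 CPM against 206, 135 and 287 CPM, with overlap (log2 fold change 0.07, SE 0.26).

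The macrophage-like cells differed between the groups in kind and in depth. There were 1202, 719 and 1099 cells in the vehicle libraries, at median depths of 9391, 7542 and 16283 UMIs, and 102, 249 and 551 cells in the ginkgetin libraries, at 2319, 2075 and 2348 UMIs. Vehicle cells lay mostly in clusters led by Gpnmb, Trem2, Folr2 or Ms4a7, and ginkgetin cells mostly in clusters led by Marco, Cd163 or Cxcl13. Summed endothelial markers were at 261 to 305 CPM in vehicle and 972 to 1897 CPM in ginkgetin macrophage-like cells, with 8 of 10 markers higher by the test. Lbr was at 104 to 116 CPM in ginkgetin endothelial-like cells, and the part of such RNA in its rise was not tested. The sub-clusters pooled as Kupffer cells were not alike in their markers, so their values are not read as those of 1 cell type. The sub-cluster that gave the 741 and 434 cells of vehicle replicates 1 and 2 had 3 of 6 Kupffer cell markers detected but all 6 lipid-associated markers, with Plac8, a monocyte marker, among its leading genes. A further sub-cluster, which held 85 of the 102 cells of ginkgetin replicate 1 and 224 of the 249 of replicate 2, had all 6 Kupffer cell markers detected, but it stayed unnamed, with endothelial genes among its leading genes, and was not in the pool. Most cells of these libraries were thus left out of the Kupffer cell values. In the 3 sub-clusters pooled under that name edgeR and DESeq2 called 0 of 23 genes, against 0% and 1.26% of 9794 genes, and 4 had an unadjusted p under 0.05 by edgeR, against 12.6%. With the replicate block Lbr and Fdps were called, 2 genes against 8.58%. That fit left out ginkgetin replicate 1 for its 5 cells and held 12 cells of ginkgetin replicate 2. Macrophage-like cells with at least 1 UMI of Clec4f, a Kupffer cell marker, were fitted as well. Their median depths were 6729 to 18999 UMIs in vehicle and 1977.5 to 2311.5 UMIs in ginkgetin libraries, so a single UMI admits deep vehicle cells more readily, and no background share was set. These cells are therefore not read as Kupffer cells, nor the fit as support for the calls in the whole class. Lbr (log2 fold change 1.80, SE 0.21, adjusted p 0.013 in edgeR) and Ebp (-1.09, SE 0.23, adjusted p 0.0289 in edgeR) were called among them, 2 of 22 genes against 8.95%. With the replicate block Fdps was called lower there too, 3 genes against 14.9% of all genes, and leaving out single libraries left 0 to 2 calls, against 0.0104% to 11.6%.

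The genes near the pathway that passed in macrophage-like cells went in both directions. Of 10 genes of SREBP processing and sterol-regulated degradation, 3 rose (Erlin1, Rnf139 and Rnf145, log2 fold changes of 1.10, 1.08 and 0.998) and 0 fell, against 13.1% of all genes passing at any fold. The 3 encode a membrane scaffold and ubiquitin ligases of the endoplasmic reticulum. Of 17 genes of sterol transport, efflux and LXR, Rxra (1.35) and Gramd1c (2.90) rose, and Lipa, the lysosomal acid lipase (-0.98), was among 2 that fell. In the isoprenoid branch Fnta, a farnesyltransferase subunit, fell (-1.14), and among fatty acid genes Acly rose (0.82). Each was the 1 gene passing in its list, where 13.1% of all genes passed. The stress genes Hspa1a, Hsp90aa1 and Hspa8 were among 4 of 16 that fell. Of 12 cell cycle genes Stmn1 fell, and of 14 hepatocyte transcripts Trf fell, 1 gene in each list and fewer than 13.1% of its genes.

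**Figure D4:**
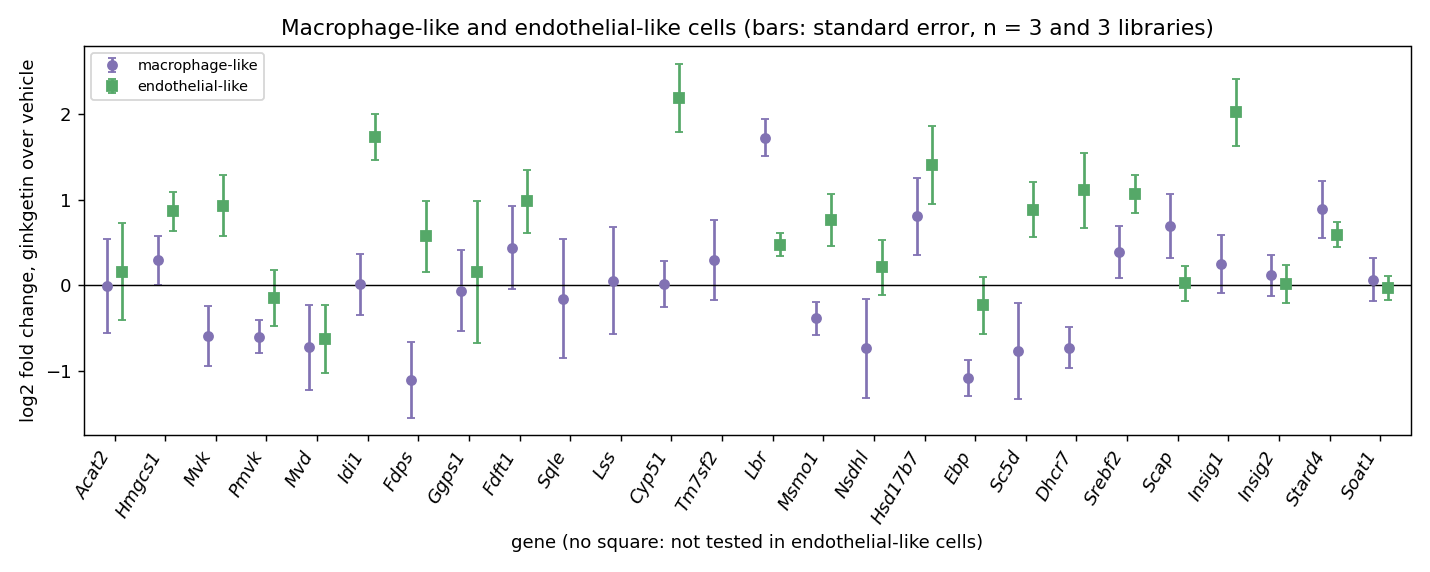
Log2 fold change (ginkgetin over vehicle) of each gene in macrophage-like cells (circles) and endothelial-like cells (squares), with bars for the standard error, from 3 libraries per group. Insig1 and Idi1 lie near 2 in endothelial-like cells and near 0 in macrophage-like cells, and Lbr is the gene that lies clearly higher in macrophage-like cells.

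The difference between these classes was tested directly, as the classes share their libraries. Of 25 genes that passed the low-count filter of the joint fit, Sqle among them, 10 differed at an edgeR adjusted p under 0.05, against 10.6% of all genes. Insig1, Fdps, Dhcr7, Idi1, Cyp51, Msmo1, Sc5d, Sqle and Ebp had a lower log2 fold change in macrophage-like cells, and Lbr a higher one. For Insig1 the difference of log2 fold changes was -1.77 (SE 0.25, adjusted p 0.00102 in edgeR) and for Lbr 1.25 (SE 0.23, adjusted p 0.00446 in edgeR). Without vehicle replicate 1 the count fell to 5 of 25, against 7.09% of all genes, and without vehicle replicate 3 to 6 of 26, against 7.48%. With the cell filter applied to UMIs per cell 15 genes were tested and 1 differed, against 1.73% of all genes.

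In the other classes no gene of the 26 was called by edgeR in the main fit by group alone, nor was any gene at all (background 0% in each). Several enzymes had small unadjusted p-values, and other settings gave some calls. In monocyte-like cells 13 of 22 genes were higher and 1 lower at an unadjusted p under 0.05, against 13.9% of all genes in either direction. Estimates were above 0 for 19 of the 22, against 51.9% of all genes, with a median of 0.87. Idi1 in these cells was at 6.58, 6.06 and 9.6 CPM against 28.9, 28.1 and 61.9 CPM (log2 fold change 2.29, SE 0.30, adjusted p 0.196 in edgeR). Sqle, Cyp51, Stard4, Srebf2 and Insig1 had log2 fold changes of 2.72, 2.04, 1.78, 1.61 and 1.61. With the replicate block 9 genes were called in monocyte-like cells, all higher, against 2.95% of all genes, and DESeq2 called 7, against 1.66%. In replicates 1 and 2 only, edgeR called 0 of 20, against 0% of all genes. In dendritic-like cells 12 of 24 genes were higher and 1 (Ebp) lower at an unadjusted p under 0.05, against 13.5% of all genes (6.62% in the higher direction). There were 8 calls with the block, against 3.09%, and 3 by DESeq2, against 0.528%. By edgeR in replicates 1 and 2 only, 0 of 24 were called, against 0%. Hmgcs1 in dendritic-like cells was at 27.1, 23.1 and 28.4 CPM against 49.7, 68.6 and 114 CPM (log2 fold change 1.49, SE 0.23, adjusted p 0.271 in edgeR). This class pooled unlike clusters. The one led by Cd209a held 315, 144 and 4 cells of vehicle replicates 1, 2 and 3, and 99, 190 and 4 of the ginkgetin ones. The one led by Ccl22 held 38, 24 and 112 against 3, 9 and 66 cells. The part of this makeup in the result was not tested.

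In T cell-like cells 9 of 25 genes were higher at an unadjusted p under 0.05, against 5.11% of all genes in that direction (10.7% in either), and 20 estimates were above 0, against 50.5%. Srebf2 was at 17.3, 12 and 24.4 CPM against 48.7, 38.4 and 84.9 CPM (log2 fold change 1.62, SE 0.26, adjusted p 0.322 in edgeR) and was the 1 gene called with the replicate block, against 0.636%, and by DESeq2, against 1.08%. In plasma cell-like cells 5 of 19 genes were higher and 1 lower at an unadjusted p under 0.05, against 11.4% (5.36% in the higher direction), and 14 estimates were above 0, against 49.2%. In B cell-like cells 0 of 17 were higher and 1 lower, against 12.3% (5.35% in the higher direction), and 8 estimates were above 0, against 50.7%. DESeq2 called 0 of the cholesterol genes in either class, against 0.588% and 0.358% of all genes. The median log2 fold change was 0.50 in plasma cell-like and -0.13 in B cell-like cells. In NK cell-like and stellate-like cells 3 genes each had enough counts to be tested, and DESeq2 called 0 of them, against 0.0549% and 0.0636% of all genes. In NK cell-like cells Srebf2 was at 10.6, 6.51 and 12.7 CPM against 39.6, 50.5 and 37.5 CPM (log2 fold change 2.10, SE 0.48, adjusted p 0.484 in edgeR). It was the 1 gene of the 3 at an unadjusted p under 0.05, against 9.88% of all genes (5.3% in the higher direction), and 2 of the 3 estimates were above 0, against 49.8%.

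Hepatocyte-like cells could be compared in 3 vehicle and 2 ginkgetin libraries, as ginkgetin replicate 1 held none and ginkgetin replicate 2 held 12. The fit leaves out ginkgetin replicate 1. The median log2 fold change over 15 genes was 1.79, with 7 higher and 1 lower at an unadjusted p under 0.05, against 13.8% of all genes. Idi1 was at 37.5, 43.5 and 53.5 CPM against 291 and 343 CPM (log2 fold change 2.68, SE 0.35, adjusted p 0.213 in edgeR), and Hmgcs1 at 37.5, 81.1 and 132 CPM against 413 and 518 CPM (2.33, SE 0.49, adjusted p 0.289 in edgeR). Insig2 was at 436, 550 and 422 CPM against 243 and 159 CPM (-1.43, SE 0.36, adjusted p 0.294 in edgeR). Insig1 was at 28.2, 67.2 and 51.7 CPM against 461 and 141 CPM (2.34, SE 0.62, adjusted p 0.294 in edgeR). The estimates of these related genes thus had opposite signs. With the replicate block 5 genes were called, against 3.6% of all genes, but not Insig2 (adjusted p 0.13), and DESeq2 called 3 higher and Insig2 lower, against 1.75% of all genes.

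Ebp was the enzyme that most often lay below 0. Its log2 fold change was -1.09 in macrophage-like, -0.76 in dendritic-like, -0.72 in NK cell-like, -0.56 in monocyte-like and -0.23 in endothelial-like cells, and it was -0.60, -0.59 and -0.54 in the B, T and plasma cell classes. Of these only the macrophage-like value was called. The estimate was 0.09 in cholangiocyte-like and 0.39 in hepatocyte-like cells. Soat1 had log2 fold changes from -0.28 in B cell-like to 0.11 in dendritic-like cells and was called in no class. In contrast, Insig1 had estimates above 0 in macrophage-like, endothelial-like, monocyte-like, dendritic-like, hepatocyte-like and cholangiocyte-like cells and in the B, T and plasma cell classes, and passed in cholangiocyte-like cells.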

How the data were processed

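Raw UMI counts per gene and cell barcode were deposited by the authors for 6 libraries of liver non-parenchymal cells, without normalization. The submitters' processing notes name the builds GRCm38 and mm10, and the aligner, counter and annotation are not given in the sources used here. The study's methods state a range of 250 to 5000 for UMIs, with under 5% mitochondrial UMIs. Here the range was applied to genes per cell, which kept 27544 cells, since applied to UMIs it kept 16821. Both that reading and leaving out the filter were tried. Cells were clustered together in scanpy 1.11.5 (python 3.11.15, scikit-learn 1.9.0, leidenalg 0.10.2, igraph 0.11.9) without the 26 genes, with 2000 variable genes, 30 components, 15 neighbours and resolution 1 (0.5 for sub-clusters). For classes, a marker counted as detected at 25% of cells and 2 times the mean of other cells, and a name needed 3 markers. In sub-clusters 25% of cells was enough, so detection there does not mean a higher level than in other sub-clusters. Their names went to the kind with the highest relative marker level, with 3 markers detected. Doublets were not removed, as Scrublet called at most 0.192% of a library.

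Counts were summed per library and class, from 10 cells upwards, and fitted by group alone in R 4.3.3. The quasi-likelihood test of edgeR 4.0.16 was used after filterByExpr and TMM scaling. DESeq2 1.42.0 and limma-voom (limma 3.58.1) were alternatives. The SE is the log2 fold change divided by the root of the F statistic. A lower bound at Poisson noise can make a p larger than that SE implies. The code was tested on simulated data. Genes given in every library were those passing an adjusted p of 0.05, in macrophage-like and endothelial-like cells also 14 listed genes. Of related lists, up to 3 genes passing per class are named. Cholangiocyte-like genes beyond this rule were named after their values were seen. The 26 genes and the lists were chosen with earlier results of these data known.

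The labels number the replicates 1 to 3 in both groups. Libraries of the same number deviated together (r from 0.339 to 0.913 in 10 classes). For replicates 1 and 2 alone r was 0.339 to 0.675, and 0.0025 to 0.678 with crossed numbers. Every same-numbered pair was over 0.1, and on that rule the block is given where it changed a call. The crossed pairs reached similar values, in endothelial-like cells 0.678 and 0.636 against 0.675 and 0.648 for equal numbers. These values therefore do not show that replicates 1 and 2 are paired by number. They cannot tell such pairing from the difference of replicate 3 from the other libraries.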

Additional observations from a re-analysis of the deposited data

Results flagged for a closer look

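The group difference in macrophage-like cells differed from that in endothelial-like cells, by the test of the difference itself in edgeR, for 10 of 25 genes tested, against 10.6% of all genes. The count was 5 without vehicle replicate 1 (7.09% of all genes), 6 without vehicle replicate 3 (7.48%) and 1 of 15 with the cell filter read as UMIs per cell (1.73%). The difference of log2 fold changes, macrophage-like minus endothelial-like, was -1.77 for Insig1, -1.76 for Fdps, -2.03 for Dhcr7, -1.72 for Idi1, -2.09 for Cyp51, -1.20 for Msmo1, -1.57 for Sc5d, -2.84 for Sqle, -0.88 for Ebp and 1.25 for Lbr. Sqle was too low to be tested in endothelial-like cells alone, and its difference rests on few UMIs.

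The difference in cholangiocyte-like cells was larger than that in macrophage-like cells for 17 of 26 genes (8.11% of all genes), in endothelial-like cells for 5 (0.895%), in monocyte-like cells for 3 (0.313%), in dendritic-like cells for 4 (0.173%) and in T cell-like cells for 6 (0.209%), by the same test.

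Clusters led by cell cycle genes had stayed without a class name and entered no comparison. Their summed level of the 26 genes was 609, 564 and 668 CPM in the vehicle libraries and 876, 986 and 1214 CPM in the ginkgetin libraries, with a ginkgetin mean of 1025 CPM. These clusters mix lineages, and their makeup was not matched between the groups.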

How the results depend on the processing

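Single genes named in macrophage-like, endothelial-like and cholangiocyte-like cells gave 702 values under other settings, of which 613 kept their side of the threshold, 60 lost and 29 gained a call, and 0 called values turned. There were 45 changes of sign, all in estimates called in neither setting, such as Cyp51, Idi1, Sqle and Ggps1 in macrophage-like cells. Each of the 10 cholangiocyte-like genes kept its sign, Hmgcs1 between 2.84 and 3.31. Cholangiocyte-like calls, 10, were 16 with DESeq2 and 18 with the replicate block, the barcode-set term or replicates 1 and 2 only (median log2 fold change 2.03), and 0 to 8 with 1 library left out, against 1.08% to 2.52% and 0% to 0.152% of all genes. Settings for this class by itself, for Clec4f-positive cells and for endothelial sub-clusters were chosen after seeing the data. With the range read as UMIs per cell this class could not be fitted. Macrophage-like calls, 2, were 0 with that reading, 1 without a cell filter, 1 in replicates 1 and 2 only and 0 to 2 with 1 library left out, against 0.366%, 12.3%, 11.4% and 0% to 11.5% of all genes. Endothelial-like calls, 0, were 1 with the UMI reading, 1 without a cell filter, 4 with DESeq2, 4 with the replicate block, 6 with the barcode-set term and 5 in replicates 1 and 2 only, against 0.541%, 0.988%, 3.14%, 4.31%, 4.48% and 3.44% of all genes. The endothelial-like median, 0.59, was 0.75 with the UMI reading, 0.84 with no low-count filter and 0.54 to 0.74 with 1 library left out. Calls summed over the 9 other classes, 10, all cholangiocyte-like, were 2 with the UMI reading, 17 without a cell filter, 31 with DESeq2, 41 with the replicate block, 41 with the barcode-set term, 18 in replicates 1 and 2 only and 0 to 8 with 1 library left out, against 0.255%, 0.136%, 0.858%, 1.87%, 1.63%, 0.245% and 0% to 0.0212% of all gene tests. With no low-count filter these calls were 15, against 0.175%. Calls in the sub-clusters pooled as Kupffer cells, 0, were 1 when the 26 genes entered clustering, 4 with limma-voom, 2 with the replicate block, 3 with the barcode-set term, 2 in Clec4f-positive cells and 0 to 5 with 1 library left out, against 7.62%, 10.7%, 8.58%, 13.1%, 8.95% and 0% to 27.5% of all genes. The 10 genes differing between macrophage-like and endothelial-like cells were 1 with the UMI reading and 5 to 10 with 1 library left out, against 1.73% and 6.33% to 10.1% of all genes. Against cholangiocyte-like cells, endothelial-like cells gave 8 genes with no low-count filter and 1 to 6 with 1 library left out, against 1.55% and 0.298% to 1.85% of all genes. Monocyte-like cells gave 5 without a cell filter, 5 with the 26 genes in clustering, 0 with cells assigned one by one, 6 with no low-count filter and 2 to 4 with 1 library left out, against 1.67%, 0.481%, 0%, 1.26% and 0.15% to 0.674%. Dendritic-like cells gave 7 without a cell filter, 9 with no low-count filter and 3 to 7 with 1 library left out, against 0.732%, 0.956% and 0.0663% to 0.616%. T cell-like cells gave 3 with cells assigned one by one, 10 with no low-count filter and 0 to 8 with 1 library left out, against 0.0454%, 1.27% and 0.0176% to 0.817%. Genes whose thinned shares did not overlap were 3 in place of 6 in macrophage-like cells at 500 UMIs, 7 without thinning, all lower, and 2 in place of 10 in endothelial-like cells without thinning. Few cells limit the hepatocyte-like, stellate-like and NK cell-like values. Replicate 3 gives no test by itself.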

Other observations

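Over all kept cells of a library, whatever their class, the 26 genes summed to 499, 518 and 575 CPM in the vehicle libraries and to 734, 814 and 923 CPM in the ginkgetin libraries. These totals also move with the makeup of classes. In the unnamed clusters the level was 556 to 599 CPM in vehicle and 816 to 942 CPM in ginkgetin libraries.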
